A study of Mus musculus with 6 samples.

Results

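The receptor subunits through which the colon epithelium receives signals from IL-17, IL-4 and IL-13, the IL-10 family, interferon gamma and IL-6 were followed in the RNA-seq of mice with and without *Zfp90* in their intestinal epithelium. The subunits were given as a list of 10 genes, *Il17ra*, *Il17rc*, *Il17re*, *Il4ra*, *Il13ra1*, *Il10rb*, *Ifngr1*, *Ifngr2*, *Il6ra* and *Il6st*, and all 10 were found by symbol among the 52550 genes listed for each sample. The study compared 3 samples from Zfp90fl/fl mice with 3 samples from Zfp90ΔIEC mice. By the labels both groups were male C57BL/6 mice of 6 to 8 weeks, and both carried the floxed *Zfp90* alleles. In the Zfp90ΔIEC mice a Cre recombinase under the Villin promoter, which is active in intestinal epithelial cells, removed the floxed last exon, so that other cells of the colon kept the gene. All mice received 10 mg/kg of the carcinogen azoxymethane (AOM) by intraperitoneal injection and, after 5 days, by the labels 3 cycles of 2% dextran sulfate sodium (DSS, which injures the colon) for 7 days, each followed by 14 days of plain water, and were killed on day 80. The study's methods differ from the labels in giving a higher DSS concentration, and an age at the upper end of that range. Epithelial cells were shaken loose from the colon with EDTA and DTT, and total RNA was sequenced. The mice were littermates but were housed by genotype after weaning, so cage and genotype cannot be told apart. For 2 of the Zfp90ΔIEC samples the genotype label names a gene with another number, and these samples were placed by their titles.

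Cytokine receptors of these families are complexes of unlike chains, in which 1 chain mostly binds the ligand and another is shared between receptors or carries the signal. IL-17RA is the shared chain that pairs with IL-17RC for IL-17A and IL-17F and with IL-17RE for IL-17C, IL-10RB is the shared chain of the receptors for IL-10, IL-22 and interferon lambda, and gp130, the product of *Il6st*, is shared by the IL-6 family. In the gut epithelium these receptors are known to induce antimicrobial proteins, mucus components, antigen presentation genes and repair programmes, mostly through JAK kinases and STAT factors and, for IL-17, through the adaptor ACT1.

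Among the 9 subunits over the filter on low values (1 FPKM in 3 samples), *Il4ra* differed most between genotypes, with a mean in the Zfp90ΔIEC samples at 57.1% of that in the Zfp90fl/fl samples. *Il17re* stood at 77.6%, *Il6st* at 77.9% and *Ifngr2* at 87.2%, and in all 4 genes every Zfp90ΔIEC sample lay below every Zfp90fl/fl sample. For *Il17ra*, *Il17rc*, *Il13ra1*, *Il10rb* and *Ifngr1* the groups overlapped and the means differed by less than 10%. *Il6ra*, below the filter, stood at 179.6% with overlapping groups. None of the members passed the test. With limma on log2(FPKM + 1), where FPKM counts fragments for each kilobase of a transcript and each M of mapped fragments, 0 of 10 subunits had an adjusted p under 0.05 (Benjamini-Hochberg over 11564 genes), and 4 had an unadjusted p under 0.05. Across all genes tested, 23 passed, which is 0.199%, and 14.6% had an unadjusted p under 0.05. The 4 subunits with an unadjusted p under 0.05 were all lower in the Zfp90ΔIEC samples, a class that held 8.09% of all genes tested. Of all genes tested, 12.6% were lower without overlap, as were 4 of the 9 subunits over the filter. The log2 fold change (Zfp90ΔIEC minus Zfp90fl/fl) was below 0 in 7 of the 9 subunits that passed the filter on low values, against 57.2% of all genes. The median over those 9 was -0.10, and over all genes -0.02.

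Markers of leukocytes stood lower in the Zfp90ΔIEC libraries. The summed level of 4 markers of all leukocytes (*Ptprc*, *Laptm5*, *Coro1a*, *Cd53*) was 4.48 to 5.59 FPKM in the Zfp90fl/fl samples and 1.87 to 2.96 FPKM in the Zfp90ΔIEC samples, with no overlap, and all 4 had the lower mean in the Zfp90ΔIEC samples. The means of all 6 T cell markers (sums of 2.70 to 4.66 and 1.78 to 3.19 FPKM), of all 5 B and plasma cell markers (0.592 to 0.939 and 0.123 to 0.213 FPKM) and of all 5 macrophage markers (2.57 to 3.11 and 1.01 to 1.61 FPKM) were lower as well. Of 5 neutrophil markers 3 had the lower mean (sums of 24.2 to 45.1 and 21.9 to 33.0 FPKM, nearly all from *Ly6g*), and *Cxcr2* was listed at 0 in every Zfp90ΔIEC sample. *Csf3r*, *Mpo*, *Elane* and *Cxcr2* were each at most 0.277 FPKM in any sample. The sum is thus the level of *Ly6g*, and whether *Ly6g* marks neutrophils in these libraries was not tested. Leukocyte markers other than *Ly6g* were thus low in both genotypes and lowest in the Zfp90ΔIEC samples. Markers of fibroblasts and smooth muscle summed to 0.284 to 0.512 and 0.188 to 0.721 FPKM, and those of endothelium to 0.197 to 0.313 and 0.429 to 0.484 FPKM. The epithelial label was borne out by its markers, since all 11 were over the filter and their sum was 10490 to 12900 FPKM in the Zfp90fl/fl and 13360 to 17150 FPKM in the Zfp90ΔIEC samples, with *Epcam* between 553.5 and 608.5 FPKM. Most of the gap between these sums was that of 1 gene, *Car1* (means of 4706 and 7871 FPKM). *Epcam*, *Cdh1*, *Krt8*, *Krt19* and *Cdx2* had the lower mean in the Zfp90ΔIEC samples, each with overlap. *Krt18*, *Slc26a3*, *Car1* and *Muc2* were higher without overlap, 4 of the 11, where 8.73% of all genes tested were. Of the 11, 3 had an unadjusted p under 0.05 in limma, all higher. Of the 45 markers, 16 passed the filter and 0 of these passed the test in limma, 5 at an unadjusted p under 0.05, where 14.6% of all genes tested had one. Of the 29 below the filter, *Csf3r* (adjusted p = 0.0177) and *Itgam* (adjusted p = 0.0199 from limma) passed in the fit without the filter, both lower. In that fit 15 genes passed in all. Many of the receptor subunits are also made by leukocytes, and the part of leukocyte RNA in the differences below was not tested. In these bulk samples, fewer cells of a type and less RNA per cell cannot be told apart. The deleted gene *Zfp90* was at 0.490 to 0.630 FPKM in the Zfp90fl/fl samples and at 0.0846 to 0.195 FPKM in the Zfp90ΔIEC samples, with no overlap between the groups. *Zfp90* was below the filter and did not pass (log2 fold change -0.44, adjusted p = 0.123 from limma without the filter). It passed in 0 of 11 alternatives.

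The subunits spanned a wide range of levels in these cells. *Ifngr1* was the highest with a mean of 76.9 FPKM over the 6 samples, above 95.4% of the genes tested, and was followed by *Ifngr2* (36.6 FPKM), *Il17rc* (29.3 FPKM), *Il13ra1* (25.2 FPKM) and *Il10rb* (14.6 FPKM). The second part of the order held *Il4ra* (5.46 FPKM), *Il6st* (3.24 FPKM), *Il17re* (2.96 FPKM), *Il17ra* (2.02 FPKM) and *Il6ra* (0.258 FPKM). The highest mean was 297 times the lowest. These levels are set side by side because FPKM is per length. The transcript lengths behind the deposited values are not given, and the comparison between genes depends on them. The longest annotated transcripts run from 2112 bases for *Ifngr1* to 8678 bases for *Il6st*. Neighbours in this order were separated in all 6 samples without overlap of their ranges, except for 3 pairs. *Il17rc* and *Il13ra1* had overlapping ranges, although *Il17rc* was the higher in 6 of 6 samples. *Il4ra* and *Il6st* overlapped in range in the same way, again with *Il4ra* higher in 6 of 6 samples, and *Il6st* exceeded *Il17re* in 5 of 6. Within a genotype the coefficient of variation of the 9 subunits over the filter ran from 4.67% for *Ifngr1* to 15.2% for *Il4ra*, where the median of all genes tested was 8.40%.

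**Figure D1:**
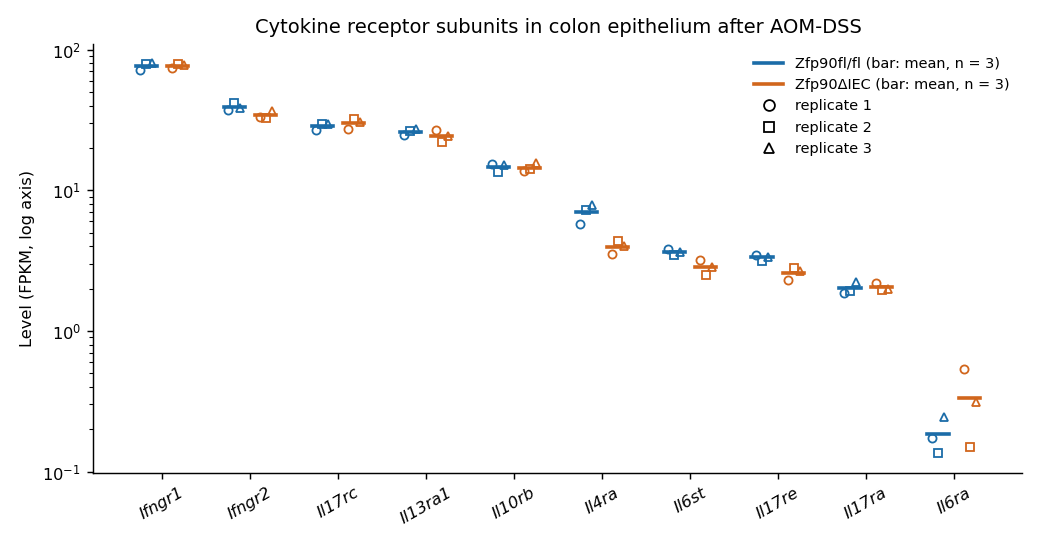
Level of each receptor subunit (FPKM, log axis) in each sample, ordered by mean, with Zfp90fl/fl in blue, Zfp90ΔIEC in orange, symbols for the replicate number and bars for the mean of 3. *Il4ra* shows the widest gap between the groups among the subunits above 1 FPKM, while *Ifngr1*, the highest at a mean of 76.9 FPKM, lies at the same height in both.

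The bases before the annotated start were read for the subunits, to show what kind of promoter each has. RefSeq promoters of GRCm38.p6 (250 bases before to 50 after the start) were matched by symbol for 8 of the 10 subunits, all but *Il17ra* and *Il10rb*. The ratio of observed to expected CG dinucleotides, a measure of CpG islands that corrects for the content of C and G, had a median of 0.384 over 32851 promoters. *Il17re* (0.144) and *Il17rc* (0.273), which lie next to each other, were below that median. The other 6 were above it, from 0.600 for *Ifngr1* to 0.935 for *Il4ra* and 0.943 for *Il6st*. The stretches below end at the base before the start of the gene in the GENCODE annotation and are on the plus strand, with each CG in capitals. For *Il17rc* and *Il4ra* this start lies before the RefSeq start, while for *Il6st* they coincide. Their CG counts are thus of unlike positions. *Il17rc* (chr6:113471327-113471426) is shown as a promoter with 0 CG in 100 bases, *Il4ra* (chr7:125552021-125552119), the subunit with the largest difference over the filter, has 6 in 99 bases, and *Il6st* (chr13:112463970-112464069), another subunit lower without overlap, has 12 in 100 bases.
Il17rc: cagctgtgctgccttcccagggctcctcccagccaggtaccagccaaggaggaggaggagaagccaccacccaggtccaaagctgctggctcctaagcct
Il4ra: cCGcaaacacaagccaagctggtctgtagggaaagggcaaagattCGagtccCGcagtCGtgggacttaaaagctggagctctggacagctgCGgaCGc
Il6st: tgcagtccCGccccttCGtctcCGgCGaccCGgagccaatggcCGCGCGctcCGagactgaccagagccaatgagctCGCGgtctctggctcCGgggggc
Among these 3 the number of CG ran opposite to the level, since *Il17rc* had the highest and *Il6st* the lowest mean FPKM. *Ifngr2*, with 16 CG in the 100 bases before its RefSeq start and a mean of 36.6 FPKM, did not keep this order. Nor did *Il17re*, whose CG ratio was the lowest of the 8 (0.144) at a mean of 2.96 FPKM. No trend is drawn from these 3 stretches.

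The IL-17 receptor was described by *Il17ra*, *Il17rc* and *Il17re*. In the GENCODE annotation of GRCm38, *Il17re* (chr6:113458484-113470758) and *Il17rc* (chr6:113471427-113483140) are neighbours on the plus strand with 668 bases between them, and *Il17ra* (chr6:120463247-120487559) lies farther along the same chromosome. *Il17ra*, the shared chain, was at 1.86, 1.93 and 2.22 FPKM in Zfp90fl/fl replicates 1 to 3 and at 2.21, 1.96 and 1.97 FPKM in Zfp90ΔIEC replicates 1 to 3. The groups overlapped, and the log2 fold change of 0.02 (95% confidence interval -0.16 to 0.20, adjusted p = 0.919 from limma) had no stable direction, being -0.01 without Zfp90fl/fl replicate 1 and -0.02 without Zfp90ΔIEC replicate 1. *Il17rc*, which completes the receptor for IL-17A and IL-17F, was at 26.6, 29.4 and 29.6 FPKM in the Zfp90fl/fl samples and at 27.3, 32.3 and 30.8 FPKM in the Zfp90ΔIEC samples. These groups overlapped as well (log2 fold change 0.08, 95% confidence interval -0.11 to 0.26, adjusted p = 0.709 from limma). *Il17rc* thus exceeded its shared partner *Il17ra* by 14.5 times in mean FPKM, a ratio that depends on the transcript lengths used.

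*Il17re*, the chain that binds IL-17C, was at 3.49, 3.16 and 3.36 FPKM in Zfp90fl/fl replicates 1 to 3 and at 2.32, 2.79 and 2.67 FPKM in Zfp90ΔIEC replicates 1 to 3. All Zfp90ΔIEC samples were the lower ones. The means were 3.34 ± 0.169 and 2.59 ± 0.242 FPKM (SD, n = 3 each), and the log2 fold change was -0.27 (standard error, SE, 0.0746, unadjusted p = 0.00808 and adjusted p = 0.176 from limma), which did not pass the threshold. The log2 fold change of its neighbour *Il17rc* was 0.08, and the difference between these was not tested. *Il17re* rested on an estimated 188 to 280 fragments a sample, the fewest among the 9 subunits over the filter.

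*Il4ra* (chr7:125552120-125579474, plus strand) encodes the chain that binds IL-4 and that forms a receptor for both IL-4 and IL-13 with IL-13RA1. It was at 5.76, 7.19 and 7.90 FPKM in Zfp90fl/fl replicates 1 to 3 and at 3.52, 4.36 and 4.03 FPKM in Zfp90ΔIEC replicates 1 to 3. The lowest Zfp90fl/fl sample lay above the highest Zfp90ΔIEC sample. The means were 6.95 ± 1.09 and 3.97 ± 0.421 FPKM (SD, n = 3 each). With a pseudocount of 0.1 in place of 1 the log2 fold change was -0.79. On log2(FPKM + 1), the scale of the test, which shrinks it, it was -0.67 (SE 0.116, 95% confidence interval -0.95 to -0.40). The unadjusted p was 7.06e-04 and the adjusted p 0.0834 from limma, so that the gene did not pass. The summed leukocyte markers, at 4.48 to 5.59 and 1.87 to 2.96 FPKM, separated the samples in the same direction, and their part in the *Il4ra* difference was not tested. The exons of *Il4ra* overlap those of *Gm44876* on the opposite strand, a gene listed at 0 in every sample. The library preparation kept strand, while the strand setting of the counting is not given in the sources used here. *Il13ra1* (chrX:36112110-36171259, plus strand), the partner chain, was at 24.5, 26.2 and 27.4 FPKM in the Zfp90fl/fl samples and at 26.6, 22.0 and 24.4 FPKM in the Zfp90ΔIEC samples. These groups overlapped (log2 fold change -0.10, 95% confidence interval -0.29 to 0.10, adjusted p = 0.640 from limma).

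**Figure D2:**
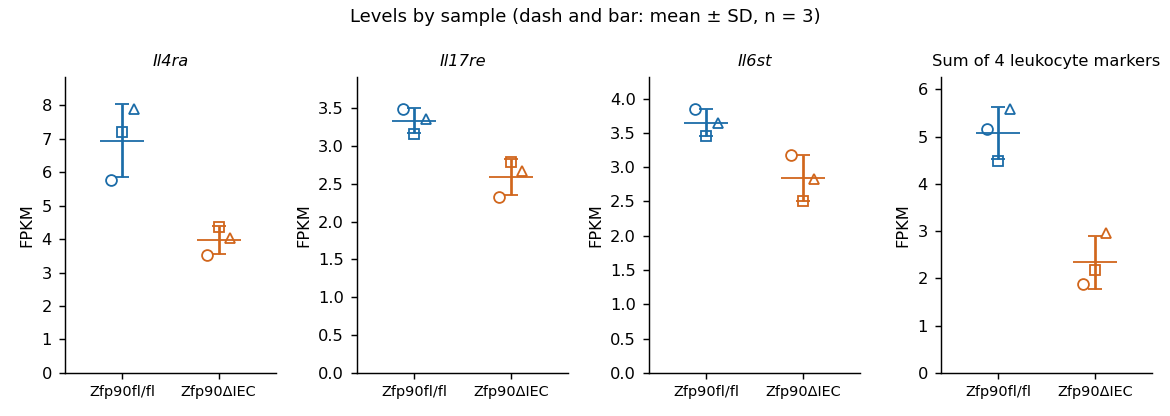
FPKM of *Il4ra*, *Il17re* and *Il6st* and the summed FPKM of the 4 markers of all leukocytes in each sample, with a circle, a square and a triangle for replicates 1, 2 and 3 and a dash and bar for the mean ± SD of 3. In all 4 panels the Zfp90ΔIEC samples lie below the Zfp90fl/fl samples, and the leukocyte sum spans 1.87 to 5.59 FPKM.

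*Il10rb* (chr16:91406164-91425834, plus strand) encodes the shared chain of the IL-10 family receptors. It was at 15.3, 13.6 and 15.1 FPKM in Zfp90fl/fl replicates 1 to 3 and at 13.7, 14.2 and 15.5 FPKM in Zfp90ΔIEC replicates 1 to 3. The samples of both groups were intermixed, with a log2 fold change of -0.02 (95% confidence interval -0.19 to 0.16, adjusted p = 0.934 from limma) that was above 0 under quantile normalization and under median ratio scaling. *Il10rb* sits in a cluster of receptor genes on chromosome 16, with *Ifnar2* 574 bases before it, *Ifnar1* after it, and *Ifngr2* 39630 bases beyond *Ifnar1*, all on the plus strand. An overlapping gene on its own strand, *Gm21970*, was listed at 0 in every sample.

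The interferon gamma receptor is made of IFNGR1, which binds the ligand, and IFNGR2, which brings in the kinase JAK2. *Ifngr1* (chr10:19591949-19610229, plus strand) was at 71.8, 79.1 and 79.7 FPKM in Zfp90fl/fl replicates 1 to 3 and at 74.0, 79.0 and 77.5 FPKM in Zfp90ΔIEC replicates 1 to 3. It was the subunit with the most fragments (an estimated 3910 to 4810 a sample) and the narrowest interval, with a log2 fold change of -7.57e-05 (95% confidence interval -0.15 to 0.15, adjusted p = 0.999 from limma) whose sign changed under median ratio scaling. *Ifngr2* (chr16:91547072-91565623, plus strand) was at 37.5, 41.6 and 38.3 FPKM in the Zfp90fl/fl samples and at 32.9, 32.8 and 36.6 FPKM in the Zfp90ΔIEC samples. All Zfp90ΔIEC samples were lower, by less than 1 FPKM for the closest pair of samples. The log2 fold change was -0.19 (SE 0.0693, unadjusted p = 0.0275 and adjusted p = 0.279 from limma) and did not pass.

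The promoters were searched for the motifs that STAT factors are known to bind. TTCNNNGAA, which reads the same on both strands, was found in 0 of the 8 matched promoters and in 8.30% of all 32851 RefSeq promoters of the same length. TTCNNNNGAA, the spacing known for STAT6, also the same on both strands, was found in 1 of the 8, that of *Ifngr2*, and in 6.95% of all. The match in *Ifngr2* is shown with 20 bases on each side (chr16:91546948-91546997, plus strand), with the motif in capitals. It begins 91 bases before the RefSeq start.
Ifngr2: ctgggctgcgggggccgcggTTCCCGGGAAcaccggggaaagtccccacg
A match of letters is no measurement of binding, and these data hold none.

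The IL-6 receptor is made of IL-6RA, which binds IL-6, and the shared signalling chain gp130. *Il6st* (chr13:112464070-112510086, plus strand) was at 3.85, 3.45 and 3.64 FPKM in Zfp90fl/fl replicates 1 to 3 and at 3.18, 2.51 and 2.83 FPKM in Zfp90ΔIEC replicates 1 to 3. The groups did not overlap, with means of 3.65 ± 0.200 and 2.84 ± 0.339 FPKM (SD, n = 3 each). The log2 fold change was -0.28 (SE 0.0827, unadjusted p = 0.0122 and adjusted p = 0.206 from limma) and did not pass. *Il6ra* (chr3:89864059-89913196, minus strand) was below the filter on low values, at 0.173, 0.135 and 0.246 FPKM in the Zfp90fl/fl samples and at 0.533, 0.151 and 0.312 FPKM in the Zfp90ΔIEC samples. Its groups overlapped, and its highest value was that of Zfp90ΔIEC replicate 1. The exons of *Il6ra* overlap those of *Gm42809* on the opposite strand, which was at most 0.0746 FPKM. In the fit without the filter its log2 fold change was 0.16 (SE 0.108, adjusted p = 0.714 from limma), on an estimated 33.0 to 127 fragments a sample, and without Zfp90ΔIEC replicate 1 it was 0.05.

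**Figure D3:**
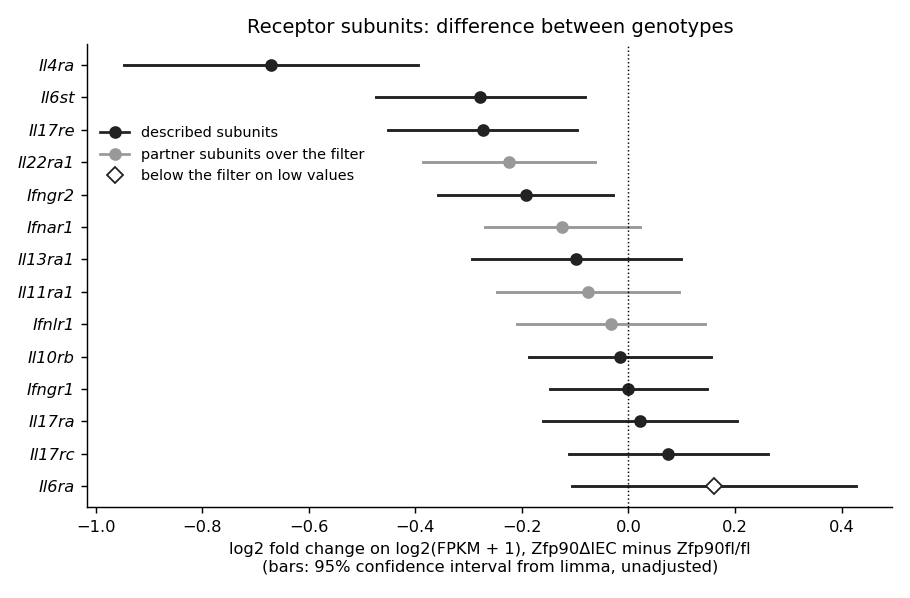
Log2 fold change on log2(FPKM + 1), Zfp90ΔIEC minus Zfp90fl/fl, with the unadjusted 95% confidence interval from limma, for the 10 subunits in black (open diamond for *Il6ra*, below the filter) and the 4 partner chains over the filter in grey. The interval of *Il4ra* reaches from -0.95 to -0.40, while those of *Ifngr1*, *Il10rb*, *Il17ra*, *Il17rc*, *Il13ra1* and *Il6ra* include 0.

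Since the chains act in pairs, the ratio of paired subunits was compared within samples, which removes any scaling shared by the genes of a sample. With 3 samples against 3 the two-sided exact permutation test over 20 splits cannot give a p below 0.1, and the p-values of the 6 ratios were adjusted together. *Il13ra1* exceeded *Il4ra* by a mean of 3.78 times in the Zfp90fl/fl and 6.13 times in the Zfp90ΔIEC samples. The log2 ratio was 2.09, 1.86 and 1.80 in Zfp90fl/fl replicates 1 to 3 and 2.92, 2.33 and 2.60 in Zfp90ΔIEC replicates 1 to 3. The groups did not overlap, and the difference of 0.70 had the smallest p the design allows (exact permutation p = 0.1, adjusted 0.2). *Il17re* over *Il17ra* also separated, at 1.67 times in the Zfp90fl/fl and 1.26 times in the Zfp90ΔIEC samples (log2 difference -0.40, exact permutation p = 0.1, adjusted 0.2). So did *Ifngr2* over *Ifngr1*, at 0.509 and 0.444 times (log2 difference -0.20, exact permutation p = 0.1, adjusted 0.2). Each ratio that separated holds a chain described above as lower without overlap and a partner whose groups overlapped. These ratios thus restate the differences of *Il4ra*, *Il17re* and *Ifngr2* and are no independent support for them. The ratio of *Il17rc* to *Il17ra* overlapped between the groups, at 14.3 and 14.7 times (log2 difference 0.05, exact permutation p = 0.7, adjusted 0.7), and changed sign without Zfp90fl/fl replicate 3 or Zfp90ΔIEC replicate 2. The remaining ratios overlapped too, with log2 differences of -0.24 for *Il22ra1* over *Il10rb* and 1.07 for *Il6ra* over *Il6st* (exact permutation p = 0.2, adjusted 0.24 for each). With 1 FPKM added to both chains, the latter difference was 0.44 (exact permutation p = 0.1).

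**Figure D4:**
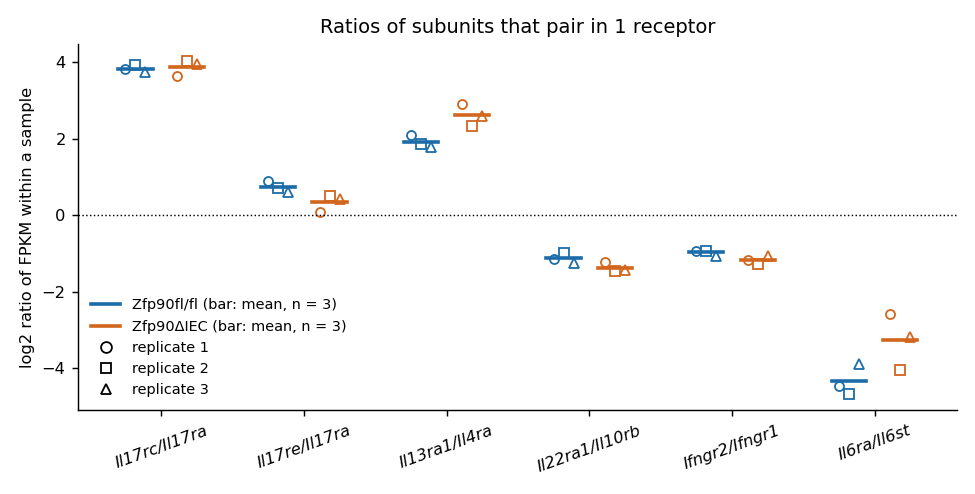
Log2 ratio of the FPKM of paired receptor chains within each sample, with Zfp90fl/fl in blue, Zfp90ΔIEC in orange, symbols for the replicate number and bars for the mean of 3. The Zfp90ΔIEC samples lie above the others for *Il13ra1* over *Il4ra* (mean log2 ratio 1.92 and 2.62) and below them for *Il17re* over *Il17ra* and *Ifngr2* over *Ifngr1*.

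Other chains of the same receptors were mostly near the limit of detection. Of 18 partner genes, 4 passed the filter and 0 passed the test in limma. Of the 4, 1 was lower with an unadjusted p under 0.05, where 8.09% of all genes tested were. The log2 fold change of all 4 was below 0 with a median of -0.10, where 57.2% of all genes tested were below 0. Without the filter, 12 of the 14 low partner genes had a value in limma, and 0 passed. Of these, *Il2rg*, *Il10ra*, *Osmr* and *Il27ra* had an unadjusted p under 0.05, all lower. The share of all genes with such a p in that fit is not given here, so this count has no background beside it. *Il22ra1*, the ligand-binding chain of the IL-22 receptor that uses IL-10RB, was at 6.94, 6.86 and 6.32 FPKM in Zfp90fl/fl replicates 1 to 3 and at 5.82, 5.16 and 5.80 FPKM in Zfp90ΔIEC replicates 1 to 3. Its groups did not overlap and it did not pass (log2 fold change -0.22, SE 0.0682, adjusted p = 0.210 from limma). *Ifnar1*, of the type I interferon receptor, was also lower without overlap, at means of 5.96 and 5.38 FPKM (adjusted p = 0.410). The interferon lambda receptor gene *Ifnlr1* (3.74 and 3.63 FPKM) and the IL-11 receptor gene *Il11ra1* (1.83 and 1.68 FPKM) overlapped. Apart from these 4, the partner genes were low. The common gamma chain *Il2rg*, which pairs with IL-4RA on lymphoid and myeloid cells, was below the filter at 1.34, 0.927 and 1.38 FPKM and at 0.453, 0.522 and 0.712 FPKM. *Il2rg*, like *Il4ra* and the leukocyte markers, was lower in every Zfp90ΔIEC sample (log2 fold change -0.50, adjusted p = 0.255 from limma without the filter). The receptor chain of oncostatin M, *Osmr*, was at most 0.0634 FPKM, that of LIF, *Lifr*, was between 0.498 and 0.804 FPKM, and *Il13ra2* and *Il31ra* were listed at 0 in all samples. *Il10ra*, which binds IL-10 and is found mainly on leukocytes, was between 0.0399 and 0.208 FPKM. In all, 13 partner genes stayed under 1 FPKM in every sample.

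The ligands were rarer than the receptors. Of 23 ligand genes 20 stayed under 1 FPKM in every sample and 6 were listed at 0 in all, namely *Il17b*, *Il25*, *Il13*, *Il20*, *Il24* and *Ifnl3*. *Lif* and *Ctf1* passed the filter, and neither had an unadjusted p under 0.05 in limma, where 14.6% of all genes tested had one. In the fit without the filter 15 of the other 21 ligands had a value, and 0 passed. Of these, 3 had an unadjusted p under 0.05, all lower: *Il17a*, *Clcf1* and *Osm*. The share of all genes with such a p in that fit is not given here either. Of all 23 ligands, 12 had the lower mean in the Zfp90ΔIEC samples. *Il17c*, the ligand of the receptor with IL-17RE and known as a product of epithelial cells, was at 1.28, 0.999 and 0.815 FPKM in Zfp90fl/fl replicates 1 to 3 and at 0.811, 0.871 and 0.748 FPKM in Zfp90ΔIEC replicates 1 to 3, with overlap. *Il17a*, made by T cells and other lymphocytes, was at 0.628, 0.826 and 0.787 FPKM and at 0.0939, 0.0894 and 0 FPKM. The *Il17a* groups were far apart but rested on an estimated 19.0 to 27.3 and 0 to 3.03 fragments, and the gene did not pass (adjusted p = 0.0589 from limma without the filter). *Clcf1*, a ligand of the gp130 family, was at 0.221, 0.216 and 0.213 FPKM and at 0.0395, 0.0698 and 0.135 FPKM, lower without overlap (adjusted p = 0.222). *Ifng* was between 0.0539 and 0.204 FPKM, *Il4* between 0.0497 and 0.183 FPKM, *Il6* at most 0.0443 FPKM and *Il22* at most 0.111 FPKM, each with overlap.

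Of 30 genes that carry or restrain the signal of these receptors, 28 passed the filter and 0 passed the test in limma. Their log2 fold changes were below 0 in 24 of 28 with a median of -0.07, 6 had an unadjusted p under 0.05, all lower, and 8 were lower without overlap. Over all genes tested these shares were 57.2% below 0, 8.09% lower with such a p and 12.6% lower without overlap. The largest log2 fold changes were those of *Socs3*, *Jak3* and *Stat3*. *Socs3*, the feedback inhibitor that binds gp130, was at 6.42, 7.35 and 10.7 FPKM in Zfp90fl/fl replicates 1 to 3 and at 4.11, 4.73 and 4.76 FPKM in Zfp90ΔIEC replicates 1 to 3. The groups did not overlap (log2 fold change -0.70, SE 0.162, adjusted p = 0.131 from limma). *Jak3*, the kinase of the common gamma chain, had means of 2.36 ± 0.392 and 1.47 ± 0.192 FPKM (adjusted p = 0.135), and *Stat3*, the factor downstream of gp130 and of the IL-22 receptor, of 11.6 ± 1.31 and 9.01 ± 0.888 FPKM (SD, n = 3 each; adjusted p = 0.205), both without overlap. By group, 1 of 6 genes of the IL-17 pathway, 2 of 4 JAK kinases, 1 of 6 STAT factors, 1 of 10 inhibitors and 1 of 2 proteases that shed receptors had an unadjusted p under 0.05.

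Genes known to respond to these receptors were the only one of these lists with a gene past the threshold among those over the filter. This list, like the others, was chosen with earlier results of these data known. Its counts beside the shares of all genes therefore describe the list and are no independent test. Of 37 such genes 30 passed the filter, 2 passed the test in limma, both lower, and 13 had an unadjusted p under 0.05, 12 of them lower. The median log2 fold change was -0.18, and it was below 0 in 22 of 30. Over all genes tested, 0.199% passed, 8.09% were lower with an unadjusted p under 0.05 and 57.2% had a log2 fold change below 0. *Reg3b* and *Reg3g*, antimicrobial lectins that IL-22 induces, fell. *Reg3b* was at 461, 1254 and 1802 FPKM in Zfp90fl/fl replicates 1 to 3 and at 20.8, 44.8 and 58.5 FPKM in Zfp90ΔIEC replicates 1 to 3, a log2 fold change of -4.70 (SE 0.557, adjusted p = 0.0434 from limma). *Reg3g* was at 85.4, 164 and 244 FPKM and at 5.56, 14.5 and 11.9 FPKM, a log2 fold change of -3.79 (adjusted p = 0.0434). The spread of both among Zfp90fl/fl samples was wide, and of the 6 fits that left out a sample only the one without Zfp90fl/fl replicate 1 kept them past the threshold. Without each of the other 5 samples the adjusted p ran from 0.0607 to 0.144 for *Reg3b* and from 0.0615 to 0.139 for *Reg3g*. The genes are close paralogues, and how reads shared between them were counted is not given in the sources used here. *Retnlb*, a goblet cell product that IL-4 and IL-13 induce, was next, at 53.5, 99.0 and 82.0 FPKM and at 27.8, 21.5 and 59.5 FPKM, with overlap (log2 fold change -1.18, adjusted p = 0.243 from limma).

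The counts by receptor stand beside the 12.6% of all genes tested that were lower without overlap and the 8.73% that were higher without overlap. Of the 5 IL-22 target genes 5 passed the filter, all had a log2 fold change below 0, and 4 were lower without overlap, while their receptor chains *Il22ra1* and *Il10rb* stood at log2 fold changes of -0.22 and -0.02. For IL-17, 7 of 10 targets passed the filter, 4 of these were lower without overlap and 3 had a log2 fold change above 0, with a median of -0.24. The IL-17 targets below the filter, *Lcn2*, *S100a8* and *S100a9*, were also lower without overlap, on an estimated 23.9 fragments a sample at most. For IL-4 and IL-13, 4 of 6 passed the filter, 2 had a log2 fold change below 0 and 0 were free of overlap. These 2 had an unadjusted p under 0.05 in limma. Of their receptor chains, *Il4ra* had the largest difference among the subunits over the filter. For interferon gamma, 8 of 10 passed the filter and all 8 were below 0 with a median of -0.12, and 1 was lower without overlap. For IL-6, 3 of 6 were below 0, with a median of 0.0029, and *Pim1* was lower and *Birc5* higher without overlap. Outside IL-22, 0 targets passed the test. Among targets over the filter, 4 of IL-22 and 4 of IL-17 were lower with an unadjusted p under 0.05 in limma. So were 2 of IL-4 and IL-13, 1 of interferon gamma and 1 of IL-6, where 8.09% of all genes tested were. The leukocyte markers were lower in the same samples as these targets, and their part in the targets was not tested.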

How the data were processed

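RNA-seq was available for 6 samples, 3 per genotype. Per the labels, strand-specific libraries were made from total RNA. The authors' methods name paired-end sequencing of reads of 150 bp, TopHat and Cuffdiff at default options with a human genome, whereas the submitters' processing notes list FastQC, STAR 2.5, Cuffnorm, DESeq 1.22.1 and mm9, without roles. The files list mouse genes. The deposited values are FPKM, normalized by the authors for transcript length and depth. The unit follows from these sources and the values, as the files do not name it. Of the 52550 genes, 52403 had a symbol in GENCODE, and coordinates are those of GRCm38. Depth is not stated and was estimated from the steps between low values, at 25.8 to 28.8 M fragments a sample, with 53.3% to 57.5% of the values used within 0.1 of a whole step, so that fragment numbers are rough.

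The test used log2(FPKM + 1). It covered the 11564 genes that reached 1 FPKM in 3 or more samples and was made with limma 3.58.1 with an intensity trend in R 4.3.3, two-sided, with Benjamini-Hochberg adjustment and a threshold of 0.05. Named genes below the filter take their values from the same fit without it. A pseudocount of 1 shrinks fold changes of genes at a few FPKM or less. Ratios and tables used Python 3.11.15, pandas 2.3.3, numpy 2.4.6 and scipy 1.17.1, and figures matplotlib 3.10.9. The fit was tested on simulated data. The labels do not say how many mice a sample held, so p-values measure the spread between samples.

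The genes named are all 10 subunits, some of the partners and ligands, each of which could be named, the signalling and target genes past the threshold and the 3 of each with the largest fold change. *Pim1*, *Birc5*, *Lcn2*, *S100a8*, *S100a9* and the markers named singly were picked with their values in view. The subunits and all gene lists (partners, ligands, signalling genes, targets, cell type markers) were chosen with earlier results of these data known. Alternatives were quantile normalization, no filter, median ratio scaling of the samples, a pseudocount of 0.1, a fit without the intensity trend, the replicate number as a block, and leaving out each sample.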

Additional observations from a re-analysis of the deposited data

How the results depend on the processing

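The number of subunits past the threshold was 0 under every alternative run. The number of genes past it among all genes was 23, 13 with log2(FPKM + 0.1), 15 without the filter and 10 to 21 with a sample left out, the lowest without Zfp90fl/fl replicate 2. The log2 fold changes of *Il4ra* (-0.79 to -0.58, adjusted p 0.0590 to 0.223 in limma), *Il17re* (-0.36 to -0.22, adjusted p 0.161 to 0.389), *Il6st* (-0.35 to -0.21, adjusted p 0.152 to 0.424) and *Ifngr2* (-0.24 to -0.15, adjusted p 0.225 to 0.534) kept their direction in all 12 alternatives, as did those of *Il17rc* (0.0249 to 0.142) and *Il13ra1* (-0.163 to -0.0288), whose size moved by over 1.5 times with a sample left out. Values near 0 changed sign. *Il10rb* was at 0.00405 under quantile normalization, at 0.0102 under median ratio scaling, and from -0.0658 to 0.0208 with a sample left out. *Ifngr1* was at 0.0275 with median ratio scaling and from -0.0476 to 0.0264 with a sample left out. With a sample left out, *Il17ra* ran from -0.0164 to 0.0723, the log2 difference of *Il17rc* over *Il17ra* from -0.0372 to 0.170, and *Ifnlr1* from -0.0836 to 0.0211, the latter without Zfp90fl/fl replicate 3. Both scalings moved the median of all genes by at most 0.0235. The cause of these changes was not tested. *Il6ra* ran from 0.0534 to 0.519, the highest with the pseudocount of 0.1, and the log2 difference of *Il6ra* over *Il6st* was 0.438 with 1 FPKM and 0.874 with 0.1 FPKM added to both chains.

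In the fit with a replicate block, 47 genes were past the threshold (28 lower, 19 higher, 18 of them among the 23), *Il4ra* had an adjusted p of 0.0590 in limma and 4 target genes were past the threshold in place of 2. Same-numbered samples deviated from their group means with correlations of 0.194, 0.110 and 0.0782 across genes, and each sample correlated best with its own number, but not every pair exceeded 0.1, so the numbers were not taken to pair the samples. The count of target genes past the threshold was 0 with log2(FPKM + 0.1), 0 without the filter and 0 to 2 with a sample left out, and *Reg3b* (adjusted p 0.00181 to 0.144) and *Reg3g* (0.00774 to 0.139) each passed in 5 of 12 alternatives in limma. Of the cell type markers, 2 passed with the block and 2 without the filter. A level of a few hundredths FPKM rests on a few fragments, so that genes listed at 0 may be present at low levels.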
